A study of Mus musculus with 4 samples.

Results

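The transcripts described here encode 10 transcription factors of the mast cell lineage: Gata1, Gata2, Tal1, Lmo2, Runx1, Fli1, Ikzf1, Spi1, Cebpa and Mitf. They were chosen by name, as the probe sets whose single gene symbol in the platform annotation is 1 of these 10, which gave 17 of 22626 probe sets, for 10 of the 12393 genes that the annotation names singly. A probe set is a group of short oligonucleotides on an Affymetrix array that is read as 1 value. Mouse bone marrow-derived mast cells were either Pac1-/- or wild-type (Pac1+/+), with 2 arrays per genotype, from independent cultures per the series' design text, and over 98% of cells carried Kit and the IgE receptor. Pac1 is the nuclear MAP kinase phosphatase encoded by Dusp2. Marrow came from mice aged 8 to 12 weeks and was grown for 4 to 6 weeks with interleukin-3 at 5 ng/ml. Cells of both genotypes were loaded with IgE against dinitrophenyl at 100 ng/ml for 18 h, and the receptor was then cross-linked with the antigen DNP-HSA at 20 ng/ml for 2 h. All 4 arrays therefore hold activated cells, and no resting culture was compared. The sources used here give neither the mouse strain nor the deleted part of Dusp2.

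Mast cells arise from haematopoietic progenitors under a small set of DNA-binding proteins. GATA zinc-finger factors, the helix-loop-helix factor Tal1 and the bridging protein Lmo2 assemble into complexes on regulatory DNA, Runt and ETS factors act on many of the same genes, and Mitf drives Kit, protease and other genes of the mature cell. Spi1 and Cebpa are better known from macrophages and granulocytes and Ikzf1 from lymphocytes, and the balance between these factors and the GATA proteins is part of how the lineages separate.

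Most mast cell markers were bright. Of 8 listed, 7 were on the array and 6 read at least 100 on all 4 arrays, the exception being Ms4a2, the beta chain of the IgE receptor; their summed intensity was 45493 and 35708 in Pac1-/- cells, against 42752 and 39494 in wild-type cells. After quantile normalisation over the 4 arrays, the protease gene Cpa3 read 8770 to 12388, the protease gene Cma1 10267 to 11000 and the receptor chain Fcer1a 6915 to 10064. Normalisation narrowed the range of Cma1. As deposited, Cma1 read 9140 and 14118 in Pac1-/- cells, against 8030 and 10988 in wild-type cells. Ms4a2 was split between the replicate numbers, at 41.9 and 1502 in Pac1-/- replicates 1 and 2 and 142.6 and 3261 in wild-type replicates 1 and 2. The tryptase gene Tpsb2 read 475.8 on Pac1-/- replicate 2 and 5838 to 7259 on the other arrays. The arrays differed in quality: the 3' to 5' signal ratio of the GAPDH control was 1.36 and 191 on Pac1-/- replicates 1 and 2, against 0.798 and 0.839 on wild-type replicates 1 and 2, and that of beta-actin was 293 and 54.8 against 109 and 1.58. The single Dusp2 probe set had normalised intensities of 109.3 and 75.5 in Pac1-/- cells, against 167.2 and 90.7 in wild-type cells, which is -0.44 ± 0.51 on the log2 scale (SE, n = 2 per genotype; limma adjusted p = 0.888), and whether it lies in the deleted part is not known here. Markers of other lineages were mostly low, though none was listed at exactly 0. Of 9 macrophage and monocyte markers, 2 had a mean of at least 100, and their summed intensity was 6172 and 658.3 in Pac1-/- cells and 8007 and 680.9 in wild-type cells, in the order of the replicate numbers. That split was carried by Cd68, a lysosomal glycoprotein, at 5638 and 120.5 in Pac1-/- cells and 7512 and 118.3 in wild-type cells, while Adgre1, which encodes F4/80, lay between 217.0 and 250.5 on the 4 arrays and Csf1r between 44.7 and 101.7. The lysozyme gene Lyz2 was the higher in both Pac1-/- arrays, at 121.9 and 135.9, against 73.3 and 56.8 in wild-type cells. Its mean was below 100, so it was not tested. No neutrophil, basophil and eosinophil, or lymphocyte marker had a mean of at least 100 (of 9, 5 and 7 on the array). Their summed intensities were 221.3 and 520.9 in Pac1-/- cells against 283.2 and 339.6 in wild-type cells for neutrophils, 132.0 and 184.5 against 144.3 and 141.6 for basophils and eosinophils, and 136.2 and 136.0 against 126.7 and 164.0 for lymphocytes. The neutrophil peroxidase gene Mpo read 26.8 to 64.5, Prg2 5.9 to 17.8, Mcpt8 82.1 to 128.3 and Cd3e 12.0 to 62.1. Of 9 erythroid and megakaryocyte markers only Itga2b, the integrin chain CD41, did, at 1721 and 424.4 in Pac1-/- cells and 2037 and 3170 in wild-type cells, within sums of 2011 and 746.6 against 2295 and 3457, while the erythroid factor Klf1 read 25.1 to 52.5, Hba-a1 8.4 to 34.5 and Pf4 23.8 to 59.5.

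The probe sets of the factors were read over a wide range of signal. All intensities above and below, unless given as deposited, were quantile normalised over the 4 arrays. Values under 16 were set to 16 before log2 was taken, and probe sets with a mean of at least 100 were tested. Of the 17 probe sets, 12 passed this minimum, and they represent 9 of the 10 genes. The 5 that did not are 3 of the 5 Runx1 probe sets, 1 of the 2 Mitf probe sets and the only Cebpa probe set. Of the 12, 5 read at least 100 on all 4 arrays, which is 41.7%, against 61.3% of all tested probe sets. Levels of different probe sets are not compared, because each has its own affinity. By suffix, 12 of the 17 were designed for a single transcript (_at) and 5 for several transcripts of the same gene (_a_at).

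**Figure D1:**
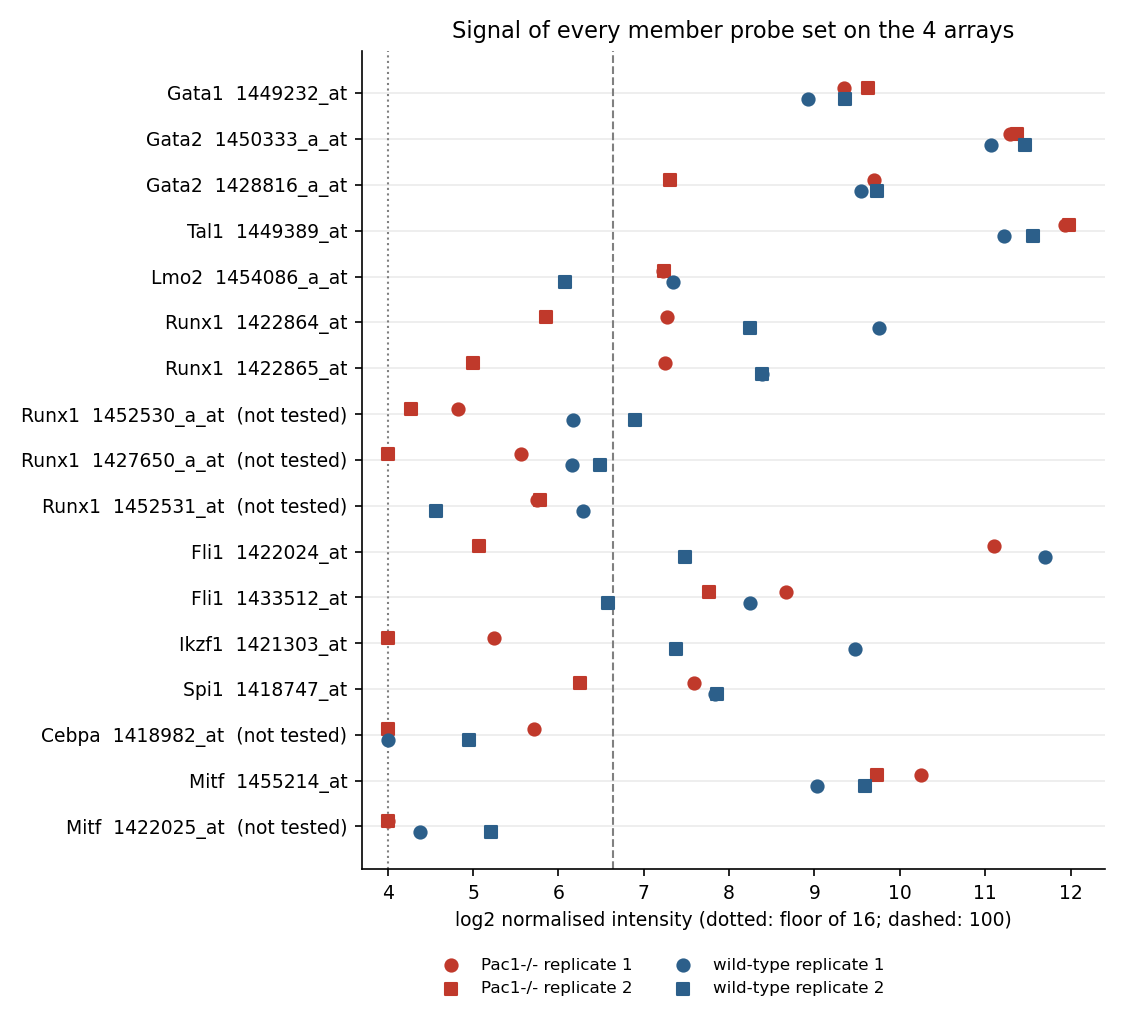
The log2 normalised intensity of each of the 17 probe sets (rows) is plotted for the Pac1-/- arrays in red and the wild-type arrays in blue, with circles for replicate 1 and squares for replicate 2. Dotted and dashed lines mark the floor of 16 and the minimum of 100; the Ikzf1 points and those of 4 Runx1 probe sets lie further left for Pac1-/- cells, while Tal1 lies further right.

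No factor passed the genotype test. In the fit across all 7770 tested probe sets, limma called 0 at an adjusted p under 0.05, which is 0% of those tested, with 0.866 as the smallest adjusted p. Before adjustment, at a p under 0.05, 2 of the 12 tested probe sets of the factors were lower in Pac1-/- cells, Ikzf1 1421303_at and Runx1 1422864_at, and 0 were higher. Among all tested probe sets 3.38% passed this limit, 1.13% lower and 2.25% higher, a split of 88 lower and 175 higher that was 93 and 110 on the values as deposited and 24 and 319 with each array centred on its median. The balance turned with arrays left out, to 360 lower and 48 higher without Pac1-/- replicate 1, 51 and 35 without Pac1-/- replicate 2, and 49 and 30 without wild-type replicate 2. Ikzf1 1421303_at and Runx1 1422865_at averaged under 100 in Pac1-/- cells and passed the minimum through the wild-type arrays, so a lower value in Pac1-/- cells was built into their selection, and the counts that hold them support nothing. The count of 2 was 0 without Pac1-/- replicate 2 or wild-type replicate 1, 4 without Pac1-/- replicate 1 and 2 without wild-type replicate 2. Over the 12 probe sets, 6 fitted differences were above 0 and 6 below, with a median log2 difference of -0.44, against 0.06 over all tested probe sets. Median centring moved these medians to 0.16 and 0.69. The median of the 12 also holds Ikzf1 1421303_at and Runx1 1422865_at, so it does not place the factors above or below the other probe sets. The median of the 12 was 0.14 without Pac1-/- replicate 2, against 0.10 over all tested probe sets, and it was closest to 0 without wild-type replicate 1. In bulk samples, fewer cells of a type and less RNA per cell cannot be told apart, and the p-values measure the spread between these cultures only. A difference within a replicate number is the Pac1-/- array minus the wild-type array of that number, and the labels do not say that the number marks a shared batch.

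**Figure D2:**
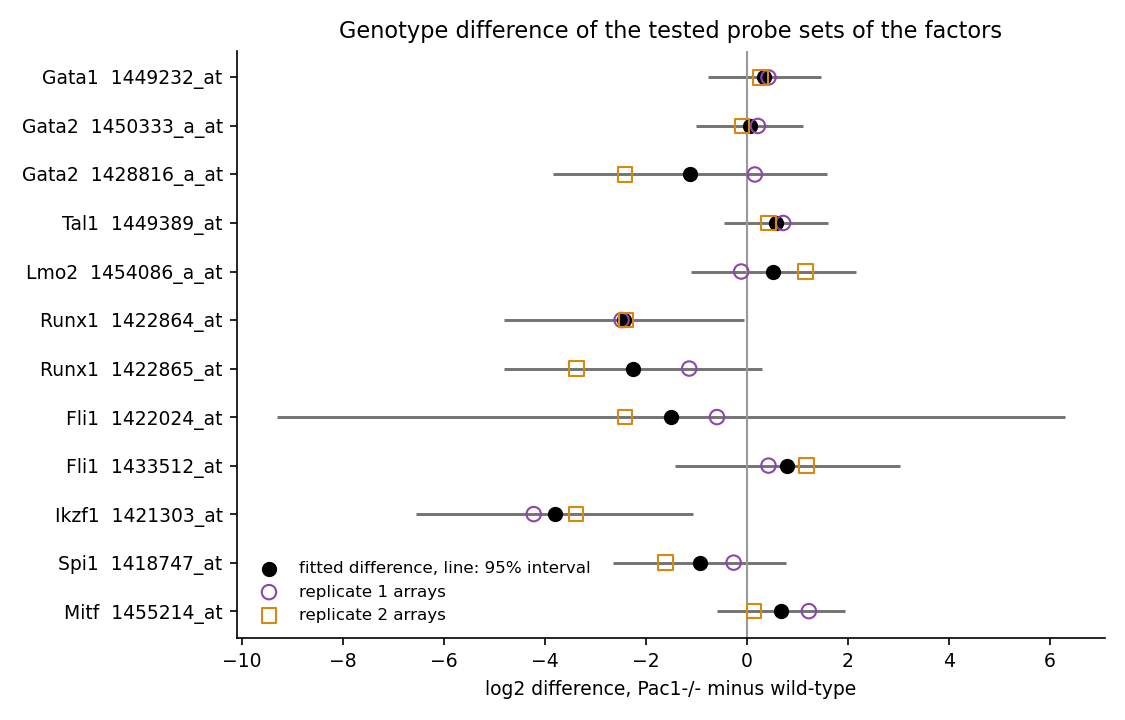
The fitted log2 difference, Pac1-/- minus wild-type, of the 12 tested probe sets is shown as a black point with its 95% interval, with the difference between the replicate 1 arrays as a circle and between the replicate 2 arrays as a square. Only the intervals of Ikzf1 1421303_at (-6.55 to -1.06) and Runx1 1422864_at (-4.81 to -0.06) lie below 0 throughout, before adjustment for 7770 tests.

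Ikzf1 had the lowest difference of the 12. It encodes Ikaros, a zinc-finger factor that shapes chromatin in lymphoid and other blood progenitors. Its single probe set, 1421303_at, had normalised intensities of 38.1 and 15.5 in Pac1-/- replicates 1 and 2, against 710.2 and 166.9 in wild-type replicates 1 and 2. Both Pac1-/- arrays were below both wild-type arrays, and both read below 100, the minimum set for testing. The log2 difference was -3.80 ± 0.96 (SE, n = 2 per genotype; limma adjusted p = 0.866) and is given as a description, because the wild-type arrays alone brought the probe set past the minimum. Because Pac1-/- replicate 2 was set to the floor, the size is approximate; with a floor of 64 it was -2.43. Within the replicate numbers the difference was -4.22 and -3.38. A difference of -2 or lower in both replicate numbers was found in 27 probe sets, 0.347% of those tested, and Ikzf1 1421303_at and Runx1 1422864_at are 2 of them. This share supports nothing, because of how Ikzf1 passed the minimum and because -2 was not among the planned limits. Wild-type cells themselves differed by -2.09 between replicates 2 and 1. Leaving out 1 array at a time gave values between -4.85 and -2.76.

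Runx1, the Runt-domain factor that pairs with Cbfb and is needed for definitive blood formation, has 5 probe sets, of which 2 were tested. In 4 of the 5 both Pac1-/- arrays were below both wild-type arrays, which held for 13.4% of all tested probe sets. Probe set 1422864_at read 154.5 and 58.1 in Pac1-/- cells, against 862.9 and 305.4 in wild-type cells, and its log2 difference was -2.44 ± 0.83 (SE, n = 2 per genotype; limma adjusted p = 0.866). The genotypes did not overlap, and the difference was -2.48 within replicate number 1 and -2.39 within number 2. Of its sum of squares over the 4 arrays, 73.7% lay between the genotypes, 26.2% between the replicate numbers and 0.0236% in the remainder. Probe set 1422865_at read 151.8 and 32.1 in Pac1-/- cells, against 334.2 and 332.9 in wild-type cells. Here the wild-type arrays were level while the Pac1-/- arrays were apart, with differences of -1.14 and -3.37 within replicate numbers 1 and 2 and a fitted difference of -2.26 ± 0.89 (adjusted p = 0.866). Probe set 1422865_at passed the minimum through the wild-type arrays, so its difference is a description. The 4 of 5 without overlap include it and dim probe sets that were not tested, so that count is not comparable with the 13.4%. Without Pac1-/- replicate 2, the array with the GAPDH ratio of 191, these 2 probe sets were at -1.73 and -1.14, and without wild-type replicate 1 at -1.69 and -2.25. The 3 remaining probe sets were too dim to test. On 1452530_a_at the intensities were 28.2 and 19.3 in Pac1-/- cells, against 72.2 and 119.4 in wild-type cells, and on 1427650_a_at they were 47.1 and 8.2 against 71.4 and 89.9, in each case without overlap. Their log2 differences, -1.99 and -1.54, shrank to -0.54 and -0.32 with a floor of 64. Probe set 1452531_at read 53.9 and 54.8 in Pac1-/- cells, against 78.5 and 23.7 in wild-type cells, so the wild-type arrays lay on either side of both Pac1-/- arrays. The probe sets of a gene share the same 4 RNA samples and are not replicates.

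**Figure D3:**
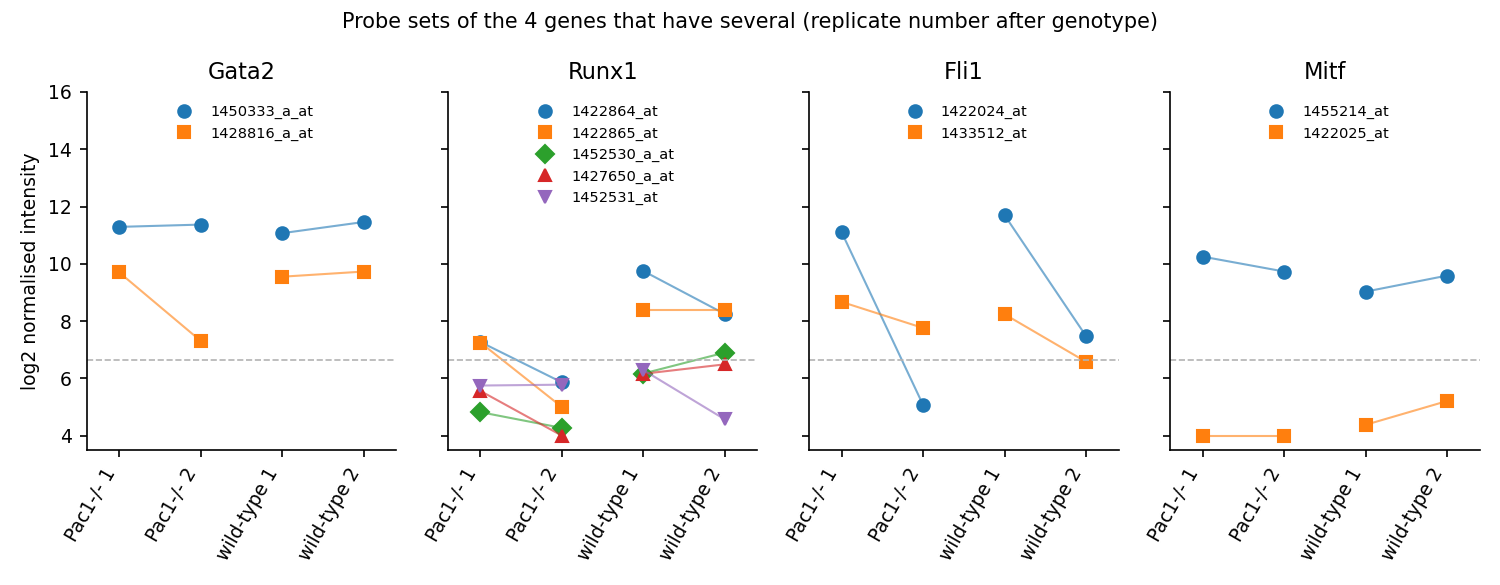
Log2 normalised intensity of every probe set of Gata2, Runx1, Fli1 and Mitf is plotted on the Pac1-/- arrays (left) and the wild-type arrays (right), with a line joining the replicates of a genotype and a dashed line at 100. The Runx1 probe sets other than 1452531_at are lower in both Pac1-/- arrays, the 2 Gata2 probe sets part only on Pac1-/- replicate 2, and Fli1 1422024_at drops in replicate 2 of both genotypes.

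The promoter windows of the 2 genes with the lowest differences are given for reference, with the motifs of the factors themselves. Windows of 300 bases, 250 before and 50 after each RefSeq transcription start (build GRCm38.p6), were found for 7 of the 10 genes, 13 windows in all. They were searched on both strands for GATAA (the GATA core), CANNTG (the E-box of helix-loop-helix factors), TGTGGT (a Runt-domain site) and AGGAAG (an ETS site), and no 2 matches overlapped. Capitals mark the matches. The upstream start of Runx1 (chr16:92826025-92826324, minus strand) held 3 CANNTG, 2 TGTGGT on the opposite strand and 1 AGGAAG, and the downstream start (chr16:92697280-92697579, minus strand) held none of the 4 motifs. The downstream start of Ikzf1 (chr11:11689927-11690226, plus strand) held 3 AGGAAG, and its upstream start, not shown, held none. Over all 32851 mouse windows of this length, GATAA occurred in 25.4%, CANNTG in 72.3%, TGTGGT in 16.8% and AGGAAG in 35.4%. Among the 13 windows of the factors these motifs occurred in 3, 6, 2 and 3. A match describes the letters only.
Runx1 upstream start: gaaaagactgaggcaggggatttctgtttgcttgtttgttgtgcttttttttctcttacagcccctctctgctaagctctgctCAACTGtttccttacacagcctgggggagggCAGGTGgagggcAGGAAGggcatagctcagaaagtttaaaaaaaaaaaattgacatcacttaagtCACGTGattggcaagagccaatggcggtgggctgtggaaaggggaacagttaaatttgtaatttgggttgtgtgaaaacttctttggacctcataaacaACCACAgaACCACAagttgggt
Runx1 downstream start: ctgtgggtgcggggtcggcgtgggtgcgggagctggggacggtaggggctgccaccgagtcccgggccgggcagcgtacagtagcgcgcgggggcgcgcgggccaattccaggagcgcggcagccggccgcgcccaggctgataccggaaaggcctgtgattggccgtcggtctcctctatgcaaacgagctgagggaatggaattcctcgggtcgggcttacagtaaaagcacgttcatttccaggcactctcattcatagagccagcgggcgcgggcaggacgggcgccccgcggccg
Ikzf1 downstream start: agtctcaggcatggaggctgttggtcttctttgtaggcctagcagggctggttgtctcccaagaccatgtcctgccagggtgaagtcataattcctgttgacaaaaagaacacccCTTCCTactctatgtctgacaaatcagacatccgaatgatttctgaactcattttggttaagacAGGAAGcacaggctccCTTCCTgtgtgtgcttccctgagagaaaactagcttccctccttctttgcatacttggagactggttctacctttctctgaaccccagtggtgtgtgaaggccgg

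In the complex of GATA factors, Tal1 and Lmo2, Tal1 was the only member whose genotypes did not overlap. Gata1, which matures erythroid, megakaryocytic and mast cells, read 651.9 and 790.8 in Pac1-/- cells, against 483.7 and 656.2 in wild-type cells (1449232_at). The ranges overlapped by a narrow margin, and the log2 difference was 0.35 ± 0.39 (SE, n = 2 per genotype; limma adjusted p = 0.881; 95% interval -0.77 to 1.47). Within the replicate numbers the Pac1-/- array was the higher by 0.43 and 0.27. The difference was 0.13 without wild-type replicate 1, 0.21 without Pac1-/- replicate 2, 0.57 without wild-type replicate 2 and 1.09 with median centring. On the values as deposited, 642.1 and 880.4 against 464.8 and 636.1, the genotypes did not overlap.

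Gata2, which maintains progenitors and is needed for mast cells to form, has 2 probe sets, both designed for several of its transcripts. On 1450333_a_at the arrays were close together, at 2509 and 2644 in Pac1-/- cells, against 2155 and 2825 in wild-type cells. Both Pac1-/- values fell between the wild-type values, and the difference was 0.06 ± 0.37 (limma adjusted p = 0.992, with an upper 95% bound of 1.12). Its sign turned without wild-type replicate 1, to -0.13. On 1428816_a_at the intensities were 834.1 and 159.2 in Pac1-/- cells, against 748.4 and 847.3 in wild-type cells. Pac1-/- replicate 2 alone stood apart, so that the difference was 0.16 within replicate number 1 and -2.41 within number 2. The fitted value of -1.13 ± 0.94 (adjusted p = 0.871) became 0.07 without that array.

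Tal1, the helix-loop-helix partner of the GATA factors, had Pac1-/- arrays that were close together. Probe set 1449389_at read 3931 and 4048 in Pac1-/- cells, against 2381 and 3011 in wild-type cells. Both Pac1-/- arrays were above both wild-type arrays. The log2 levels were 11.96 ± 0.03 in Pac1-/- cells and 11.39 ± 0.24 in wild-type cells (SD, n = 2), and the difference of 0.58 ± 0.36 (SE; limma adjusted p = 0.866; 95% interval -0.46 to 1.61) was 0.72 and 0.43 within replicate numbers 1 and 2. It kept its sign in each alternative, between 0.41 and the 1.34 of median centring. The upstream Tal1 start (chr4:115056176-115056475, plus strand) was among the 3 windows that held GATAA, on the opposite strand at positions -205 to -201 from the start, and its capitals also mark 1 CANNTG.
Tal1 upstream start: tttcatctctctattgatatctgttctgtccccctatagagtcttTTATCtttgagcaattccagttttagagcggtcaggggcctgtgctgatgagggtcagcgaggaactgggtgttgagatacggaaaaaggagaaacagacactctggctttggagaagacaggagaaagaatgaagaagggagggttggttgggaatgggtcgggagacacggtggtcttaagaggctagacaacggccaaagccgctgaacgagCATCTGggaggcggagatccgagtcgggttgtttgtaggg

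Lmo2, the LIM-domain bridge between Tal1 and the GATA factors, was dim. Its probe set 1454086_a_at read 149.8 and 151.4 in Pac1-/- cells, against 161.5 and 67.9 in wild-type cells. The Pac1-/- arrays lay between the wild-type arrays, and the difference of 0.52 ± 0.57 (limma adjusted p = 0.879) was -0.11 within replicate number 1 and 1.16 within number 2. Without wild-type replicate 2 it was -0.10.

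The ETS factors differed from each other in where their variation lay. Spi1, or PU.1, the ETS factor of macrophages, B cells and early mast cells, read 192.2 and 76.0 in Pac1-/- cells, against 229.3 and 232.1 in wild-type cells (1418747_at). The genotypes did not overlap, but the wild-type arrays were level and only Pac1-/- replicate 2 was clearly lower. The difference of -0.93 ± 0.60 (SE, n = 2 per genotype; limma adjusted p = 0.866) was -0.26 within replicate number 1 and -1.61 within number 2. It was also -0.26 without Pac1-/- replicate 2.

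Fli1, an ETS factor best known from megakaryocytes, varied with the replicate number rather than with the genotype on probe set 1422024_at. That probe set read 2196 and 33.6 in Pac1-/- replicates 1 and 2, against 3316 and 178.4 in wild-type replicates 1 and 2. The replicate 1 arrays were high and the replicate 2 arrays low in both genotypes: replicate 2 minus replicate 1 was -6.03 on the log2 scale in Pac1-/- cells and -4.22 in wild-type cells. Of its sum of squares, 89.5% lay between the replicate numbers and 7.69% between the genotypes. The fitted genotype difference, -1.50 ± 2.72 (limma adjusted p = 0.937), became 1.51 without Pac1-/- replicate 2 and 0.61 without wild-type replicate 1. Probe set 1433512_at read 408.6 and 216.4 in Pac1-/- cells, against 303.0 and 95.7 in wild-type cells. Here too the replicate 1 arrays were the higher, with replicate 2 minus replicate 1 at -0.92 in Pac1-/- cells and -1.66 in wild-type cells, and the genotype difference had the opposite sign, 0.80 ± 0.78 (adjusted p = 0.878; -0.03 without wild-type replicate 2). A mean absolute difference of 3 or more between the replicate numbers was seen in 1 of the 12 probe sets, Fli1 1422024_at, and in 10.0% of all tested probe sets. Of the macrophage markers, Cd68 was split between the replicate numbers in the same direction, Adgre1 was level and Csf1r read higher in replicate 2 of both genotypes, and the part of that list in the Fli1 signal was not tested.

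Mitf, the helix-loop-helix leucine zipper factor whose loss leaves mice short of mature mast cells, read 1221 and 851.5 in Pac1-/- cells, against 522.2 and 770.8 in wild-type cells (1455214_at). Both Pac1-/- arrays were above both wild-type arrays, by 1.23 for replicate number 1 but by 0.14 for replicate number 2. The log2 difference was 0.68 ± 0.44 (SE, n = 2 per genotype; limma adjusted p = 0.866; 95% interval -0.58 to 1.95), and it lay between 0.40 and the 1.41 of median centring over all alternatives. The other Mitf probe set, 1422025_at, was below 100 on all arrays, with 5.1 and 1.9 in Pac1-/- cells, against 20.9 and 37.1 in wild-type cells, and was not tested. Its sign was the opposite, with both Pac1-/- arrays below both wild-type arrays and a log2 difference of -0.80. Both Pac1-/- values were set to the floor of 16, and with a floor of 64 the difference was 0. Mitf has several first exons, and 3 of the 13 promoter windows belong to it. The sources used here do not say which transcripts either probe set reads.

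Cebpa, the leucine zipper factor of granulocytes and basophils, was below 100 on every array. Probe set 1418982_at read 52.3 and 7.0 in Pac1-/- cells, against 6.3 and 30.9 in wild-type cells, with 1 array of each genotype under the floor. The neutrophil markers Elane and Mpo were also under 100 on all 4 arrays. Others of that list were not: Ngp read 124.1 on wild-type replicate 2 and S100a9 107.0 on Pac1-/- replicate 2. S100a9 was split between the replicate numbers, at 10.2 and 107.0 in Pac1-/- cells and 7.8 and 57.7 in wild-type cells. Of the basophil markers, Mcpt8 read 88.5 and 128.3 in Pac1-/- cells, against 82.1 and 98.1 in wild-type cells.

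Across the factors, 4 of the 12 tested probe sets had both Pac1-/- arrays below both wild-type arrays (both tested Runx1 probe sets, Ikzf1 and Spi1) and 2 had both above (Tal1 and Mitf). Among all tested probe sets this held for 13.4% in the lower and 24.3% in the higher direction. Ikzf1 and the Runx1 probe set that averaged under 100 in Pac1-/- cells passed the minimum through the wild-type arrays. Their lower values were thus built into the selection, and the count of 4 supports nothing when set against the 13.4%. The balance turned with the scaling: with median centring, under which the whole array shifted upwards in Pac1-/- cells (overall median 0.69), 3 were lower without overlap and 6 higher. The differences had the same sign in both replicate numbers in 9 of 12, against 61.3% of all tested probe sets, and the exceptions were Lmo2 and both Gata2 probe sets. Pac1-/- replicate 2 was the lowest array for 6 of the 12, against 27.2% of all tested probe sets. These 6 were both tested Runx1 probe sets, Ikzf1, Spi1, Fli1 1422024_at and Gata2 1428816_a_at, which are also the 6 with a difference below 0. The median difference was 0.02 within replicate number 1 and -0.85 within number 2, where all tested probe sets had 0.01 and 0.13. The 3' to 5' ratio was largest on Pac1-/- replicate 2 by GAPDH (191) but on Pac1-/- replicate 1 by beta-actin (293). The part of this imbalance in these values was not tested. Of the 12 probe sets' sum of squares, 43.3% lay between the genotypes and 49.6% between the replicate numbers, against 17.9% and 71.9% for all tested probe sets. These shares are a description, and no test was made of them. The 12 hold the Ikzf1 and Runx1 probe sets that passed the minimum through the wild-type arrays, which favoured a genotype difference. The genotype share, the same-sign count, the count lowest on Pac1-/- replicate 2 and the medians therefore do not set the factors apart from the other probe sets.

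**Figure D4:**
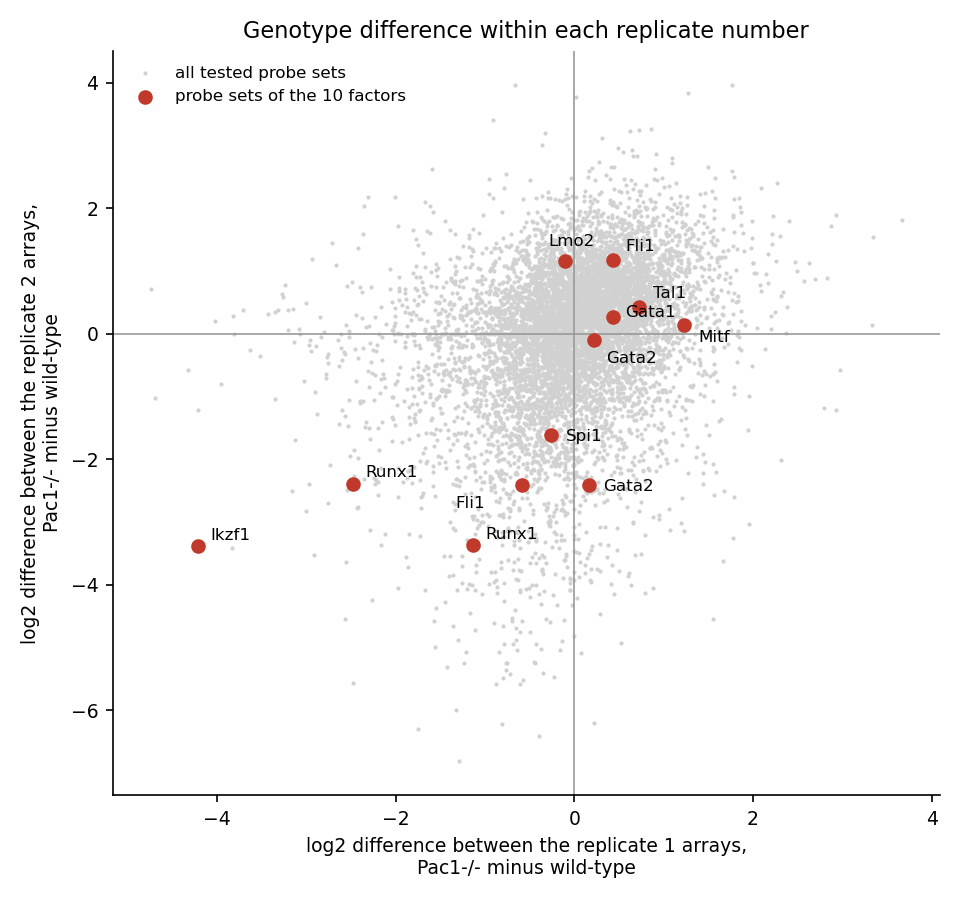
Each point is a tested probe set, with the log2 difference (Pac1-/- minus wild-type) within replicate number 1 on the x axis and within number 2 on the y axis; the factors are red and named, all 7770 tested probe sets grey. Ikzf1 (-4.22, -3.38) and Runx1 1422864_at (-2.48, -2.39) are low on both axes, while Gata2 1428816_a_at (0.16, -2.41) is low on the y axis alone.

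Partners and relatives of the factors were read next, from a list of 56 genes that holds cofactors of the GATA and Tal1 complexes, E proteins, the Runt partner Cbfb, other ETS, Ikaros, Mitf and CEBP family members and co-repressors. Of these, 50 were on the array and 32 were tested, each by its brightest probe set. At the unadjusted limit 1 of 32 was higher in Pac1-/- cells and 0 were lower, 3.12% against 2.92% of all 4998 genes tested in this way. None passed the limma adjusted test. The median difference was 0.20, against 0.10 over all genes, and 12 of 32 (37.5%) had genotypes that did not overlap, 10 of them higher, against 37.6% of all genes. The gene past the limit was the co-repressor Rcor1 (CoREST), which joins Gfi1 proteins to the demethylase Kdm1a. Rcor1 read 736.2 and 752.5 in Pac1-/- cells, against 380.3 and 227.1 in wild-type cells, a difference of 1.34 ± 0.44 (SE, n = 2 per genotype; limma adjusted p = 0.866), and its other tested probe set was at 0.50. The progenitor factor Myb, at 1971 and 1844 against 632.6 and 1135, differed by 1.17 ± 0.46, the E protein gene Tcf12 by 0.84 ± 0.34 and the homeobox factor Hhex by 0.73 ± 0.37, and in these 3 both Pac1-/- arrays were the higher. A second tested probe set of Myb was at 1.45, but that of Tcf12 had the opposite sign, -1.74, with -2.40 and -1.07 within replicate numbers 1 and 2. Lmo4, a relative of Lmo2, was lower, with 117.0 and 144.7 in Pac1-/- cells and 349.5 and 218.8 in wild-type cells (-1.09 ± 0.44). Meis1 (0.74 ± 0.49) and Nfe2 (1.19 ± 0.85) had most of their difference in 1 replicate number. Ldb1, which holds the Tal1 and GATA complex together through Lmo2, read 124.3 and 8.4 in Pac1-/- cells, against 111.4 and 182.8 in wild-type cells, so that Pac1-/- replicate 2 alone was low, as for Gata2 1428816_a_at. Ldb1 averaged under 100 in Pac1-/- cells and passed the minimum through the wild-type arrays, as did the E protein gene Tcf3. Zfpm1, a GATA cofactor, averaged under 100 in wild-type cells and passed through the Pac1-/- arrays. Their differences are descriptions, and the median of the list holds them. Cbfb, the partner of Runx1, was level at 1703 and 1861 against 1578 and 1680 (0.13 ± 0.35, adjusted p = 0.969). The count past the limit was 0 without Pac1-/- replicate 2 or wild-type replicate 1. Without Pac1-/- replicate 1 it was 2, both lower, so that Rcor1 was no longer past it.

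Genes known or proposed as targets of these factors in mast cells formed the last list, with 35 entries, of which 29 were on the array and 19 were tested. At the unadjusted limit 1 of 19 was lower in Pac1-/- cells and 0 were higher, 5.26% against the same 2.92%, and 0 passed the limma adjusted test. The median difference was -0.13, with 6 genes above 0 and 13 below, and in 3 of 19 (15.8%) the genotypes did not overlap, against 37.6% of all genes. The gene past the limit was the survival gene Bcl2, a target of Mitf in mouse cells, which read 259.8 and 110.8 in Pac1-/- cells, against 744.6 and 464.4 in wild-type cells, a difference of -1.79 ± 0.62 (SE, n = 2 per genotype; limma adjusted p = 0.866). Kit, the stem cell factor receptor and a target of Gata2 and Mitf, read 3672 and 3296 in Pac1-/- cells, against 2580 and 1521 in wild-type cells, a difference of 0.81 ± 0.44 with no overlap on its brightest probe set. The other tested Kit probe set had the opposite sign, -2.34, with -0.38 and -4.31 within replicate numbers 1 and 2, so no direction is given for Kit. The tryptase gene Tpsab1 differed by -0.69 ± 0.50, with the same sign in both replicate numbers. Tpsb2, another tryptase gene, read 6588 and 475.8 in Pac1-/- cells, against 5838 and 7259 in wild-type cells, while its other tested probe set was at 0.26. The heparin sulphotransferase gene Ndst2 and the cytokine receptor chain Csf2rb were likewise low on Pac1-/- replicate 2 alone, with differences of 0.51 and 0.68 within replicate number 1 and -2.21 and -3.53 within number 2. Fcer1a was at 0.27 ± 0.38 and Ms4a2 at -1.44 ± 2.54. The count of 1 was 4, all lower, without Pac1-/- replicate 1 and 0 without any of the other 3 arrays.

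**Figure D5:**
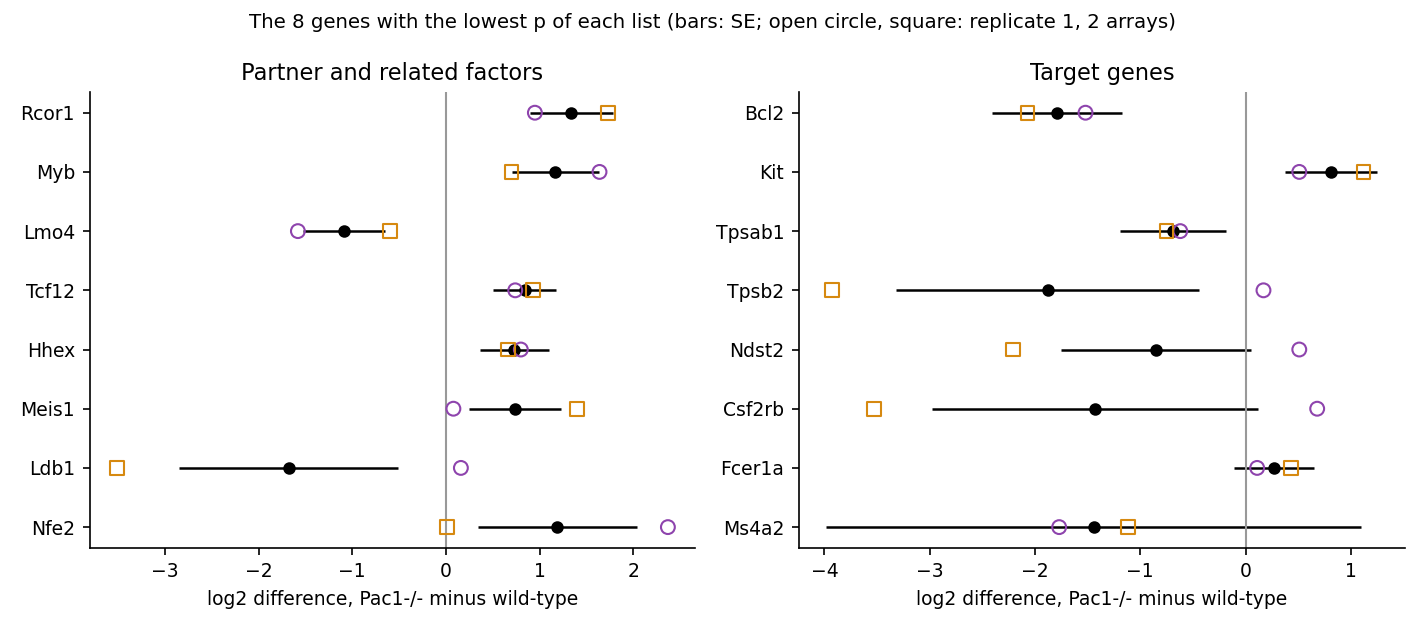
The log2 difference, Pac1-/- minus wild-type, is plotted with its SE for the brightest probe set of the 8 genes with the lowest p of the partner list (left) and of the target list (right), with the replicate 1 arrays as open circles and the replicate 2 arrays as open squares. Rcor1, Myb, Tcf12 and Hhex lie above 0 in both replicate numbers and Lmo4 and Bcl2 below 0 in both, while Ldb1, Tpsb2, Ndst2 and Csf2rb are below 0 in replicate number 2 alone.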

How the data were processed

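The authors deposited 1 linear intensity value per probe set and array, and the submitters' processing notes name MAS5. Trimmed by 2% at either end, the array means lay between 150.06 and 150.08. The series' design text, per the labels, describes RMA values instead, tested with eBayes of limma 1.3.12 above a mean of 100; RMA values were not used here. Of 22690 rows, 64 controls were left out, and 20380 of the rest have 1 gene symbol. The arrays were quantile normalised, values below 16 were set to 16, log2 was taken, and the 7770 probe sets with a mean of at least 100 were fitted across all of them with limma 3.58.1 (lmFit, eBayes, no term but genotype, tests two-sided, Benjamini-Hochberg adjusted p under 0.05; 2 residual and 1.71 prior degrees of freedom) in R 4.3.3. The fit was tried on simulated data with independent noise and no difference between replicate numbers. That simulation lacks the replicate differences of these arrays, so it does not show how the fit behaves on them. Number of arrays limits the precision. Figures used matplotlib 3.10.9 under Python 3.11.15.

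Every probe set of the 10 genes is named; of the partner and target lists, the 8 tested genes with the lowest p; and of the marker lists, bright and defining members. Cbfb, Tcf3, Zfpm1 and S100a9 were added after their values were seen. The members, lists and tests were chosen with earlier results of these data known. The alternatives were the values as deposited, median centring, no minimum, a minimum of 200, a floor of 64, an intensity trend, the replicate number as a block, each array left out in turn (the lone array left is then taken to vary as the other genotype does, and normalisation and the tested set stay those of 4 arrays), and the mean of a gene's probe sets. Promoter windows are RefSeq's. The labels do not say that a replicate number marks a shared batch or animal.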

Additional observations from a re-analysis of the deposited data

How the results depend on the processing

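Over the 130 values that the alternatives gave for the 12 tested probe sets, 124 kept their sign, and the 6 that turned all came from leaving out an array. Those ranges, over the 4 arrays left out, were -2.32 to 0.07 for Gata2 1428816_a_at, -0.13 to 0.26 for Gata2 1450333_a_at, -4.52 to 1.51 for Fli1 1422024_at, -0.03 to 1.64 for Fli1 1433512_at and -0.10 to 1.15 for Lmo2. In such fits the replicate numbers are no longer balanced over the genotypes. No alternative gave a probe set past the adjusted limit, and the lowest adjusted p was 0.191, with no minimum. The count of 2 factor probe sets past the unadjusted limit was 1 on the values as deposited, with median centring and with a minimum of 200 (Ikzf1 each time), and 0 to 4 with an array left out; with no minimum it was also 2, but these were Tal1 and Runx1 1452530_a_at. The count of 6 without overlap was 9 with median centring (6 higher, 3 lower, against 2 and 4), 9 of 17 with no minimum, and 7 to 10 with an array left out, where fewer arrays make separation easier by construction. For partners, the count of 1 was 2 with median centring, 5 with no minimum, 2 with an intensity trend, 2 with the mean of a gene's probe sets and 0 to 2 with an array left out. For targets it was 0 on the values as deposited, with median centring and with a minimum of 200, 2 with no minimum and 0 to 4 with an array left out. Over all probe sets the 263 past the unadjusted limit became 1762 of 22626 with no minimum, 110 with a minimum of 200, 408 without Pac1-/- replicate 1, 86 without Pac1-/- replicate 2 and 79 without wild-type replicate 2 (the last 3 mostly lower). Under a replicate block, though the labels give no such pairing (deviations of same-numbered arrays correlated at 0.751 across probe sets), 899 passed it (328 higher, 571 lower), with 4 factor probe sets (Ikzf1, both tested Runx1 probe sets and Fli1 1422024_at), 4 partners and 2 targets; the cause of these shifts was not tested. Signal below 100 limits Ikzf1 and Runx1 in Pac1-/- cells, Cebpa, and the dim Mitf and Runx1 probe sets.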
